A study of Drosophila melanogaster with 3 samples.

Results

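Of the 5048 optimal peak summits of Ouib-GFP in Drosophila melanogaster prepupae, 1040 (20.6%) lay in intergenic sequence. A summit, the base the authors gave as a peak's highest point, was called intergenic when it fell outside every protein-coding gene and more than 500 bp from every protein-coding transcription start site (TSS). The other summits were 2313 inside coding genes away from their starts and 1695 within 500 bp of a start. The 1 group held 3 biological replicates of whole prepupae, both sexes pooled and age not recorded, all from 1 transgenic line that stably expressed Ouib (CG11762) with GFP at its C terminus. Chromatin was sheared by sonication and precipitated with an antibody to GFP. The promoter that drove the transgene is not given in the sources used here, and the labels name no treatment. Binding in a few cells and weak binding in many cannot be told apart in whole animals.

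Intergenic DNA of the fly holds much of its distal regulatory sequence: enhancers and silencers that act on a promoter at a distance, insulators, and the promoters of noncoding RNA genes. Ouib is a zinc-finger protein of the ZAD family, whose members bind DNA through arrays of C2H2 fingers and pair through the ZAD domain. It is known from the prothoracic gland, where it is needed for expression of spookier, a gene of ecdysone synthesis. A peak far from a gene does not name the gene it acts on, so each summit is described here by the nearest coding TSS as a landmark.

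The sequences at the strongest summits are shown because they carry the feature shared most widely, an AT-rich centre. Upstream and downstream refer to the gene with the nearest coding TSS, which need not border the gap that holds the summit. Each is the plus strand of dm6, 200 bp with the summit at base 101, and capitals mark matches on either strand to the 4 words AGTGTA (19.9% of windows), GTGCAC (11.7%), ACAGTG (16.6%) and ACACTG (19.2%) described with the sequence results. The first 6 are among the 7 strongest intergenic summits, and the remaining 5 were added after their values were seen because they lie near genes of the ecdysone response, a signalling ligand and noncoding transcripts that the results turn on.
Downstream of CG4004, in lncRNA:Vinr, chrX:12751212-12751411: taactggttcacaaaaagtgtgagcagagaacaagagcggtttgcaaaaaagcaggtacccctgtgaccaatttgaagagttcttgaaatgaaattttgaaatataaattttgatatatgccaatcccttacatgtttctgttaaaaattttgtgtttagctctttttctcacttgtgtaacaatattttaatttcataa
Downstream of CG31668, chr2L:2202328-2202527: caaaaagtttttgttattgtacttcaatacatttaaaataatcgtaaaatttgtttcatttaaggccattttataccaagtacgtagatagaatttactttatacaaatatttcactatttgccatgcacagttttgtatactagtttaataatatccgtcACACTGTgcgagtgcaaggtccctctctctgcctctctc
Downstream of CG43245, chr3L:10776472-10776671: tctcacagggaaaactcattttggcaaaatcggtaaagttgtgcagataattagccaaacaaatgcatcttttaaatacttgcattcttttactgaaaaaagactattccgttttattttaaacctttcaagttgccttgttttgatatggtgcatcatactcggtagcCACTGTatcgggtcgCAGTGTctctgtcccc
Upstream of eEF1gamma, chr3R:29214336-29214535: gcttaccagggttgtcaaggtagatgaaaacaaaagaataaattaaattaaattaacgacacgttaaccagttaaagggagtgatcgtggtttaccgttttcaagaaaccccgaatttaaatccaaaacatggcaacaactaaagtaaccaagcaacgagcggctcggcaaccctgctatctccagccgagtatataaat
Downstream of CG4004, in lncRNA:CR44619, chrX:12752255-12752454: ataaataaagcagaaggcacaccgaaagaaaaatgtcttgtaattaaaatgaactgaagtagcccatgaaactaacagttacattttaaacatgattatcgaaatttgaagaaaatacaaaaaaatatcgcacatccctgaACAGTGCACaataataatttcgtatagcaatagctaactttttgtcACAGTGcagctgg
Upstream of DNAlig3, chr3R:12403028-12403227: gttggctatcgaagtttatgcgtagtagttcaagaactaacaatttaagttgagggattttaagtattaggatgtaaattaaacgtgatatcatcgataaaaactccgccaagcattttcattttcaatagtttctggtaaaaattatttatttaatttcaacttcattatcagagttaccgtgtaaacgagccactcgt
Upstream of Eip93F, chr3R:21941451-21941650: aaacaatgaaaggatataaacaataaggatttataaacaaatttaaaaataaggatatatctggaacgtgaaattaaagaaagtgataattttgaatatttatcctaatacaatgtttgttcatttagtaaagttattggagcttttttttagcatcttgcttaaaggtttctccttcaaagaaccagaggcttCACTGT
Upstream of hid, chr3L:18190609-18190808: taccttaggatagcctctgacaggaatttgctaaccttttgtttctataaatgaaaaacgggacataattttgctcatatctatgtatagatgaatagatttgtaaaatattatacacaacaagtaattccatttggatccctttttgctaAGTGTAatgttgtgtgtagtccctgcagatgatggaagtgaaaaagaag
Upstream of dpp, chr2L:2426568-2426767: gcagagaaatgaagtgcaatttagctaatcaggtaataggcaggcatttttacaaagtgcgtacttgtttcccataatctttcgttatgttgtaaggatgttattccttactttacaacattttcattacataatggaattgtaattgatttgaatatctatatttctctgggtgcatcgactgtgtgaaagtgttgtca
In lncRNA:CR43334, chr3L:640672-640871: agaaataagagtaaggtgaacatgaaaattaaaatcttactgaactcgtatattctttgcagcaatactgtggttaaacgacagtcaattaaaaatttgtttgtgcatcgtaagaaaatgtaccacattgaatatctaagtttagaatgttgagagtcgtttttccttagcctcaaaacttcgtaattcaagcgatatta
In lncRNA:let7C, chr2L:18456169-18456368: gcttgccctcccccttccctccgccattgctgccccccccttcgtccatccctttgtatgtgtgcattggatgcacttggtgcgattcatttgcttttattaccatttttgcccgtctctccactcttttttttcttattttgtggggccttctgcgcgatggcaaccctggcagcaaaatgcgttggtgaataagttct
Mean GC content over all 1040 such windows was 34.2%. Of the 11 windows shown, the one upstream of Eip93F was the most AT-rich at 26.5% GC, and the one in lncRNA:let7C was the exception at 50.5% GC.

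The strongest intergenic signal lay at few places. Signal was the authors' value for each peak, and to compare replicates it was divided by the median over the best 5048 peaks of that replicate, so 1 stands for a typical peak. The strongest intergenic summit, at base 12751312 of the X chromosome, lay 4995 bp from the nearest coding TSS, that of CG4004, in an exon of the long noncoding RNA gene lncRNA:Vinr. It measured 9.21, 11.2 and 9.70 in replicates 1, 2 and 3 (10.04 ± 1.03, SD, n = 3) and was the 4th strongest of all optimal peaks. The next, at 2202428 on 2L and 3738 bp from CG31668, measured 9.30, 9.45 and 9.05 (9.27 ± 0.204). The replicates' ranges of these 2 summits touched, so their order is not resolved.

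Summits 3 to 6 in the pooled order measured between 6 and 9 in every replicate. At 13035333 on 2R, in the 36783 bp between Su(z)2, a Polycomb-group gene, and CG13323, the values were 8.41, 8.86 and 8.04 (8.44 ± 0.412). At 10776572 on 3L, 4647 bp from CG43245, they were 7.28, 7.76 and 7.05 (7.37 ± 0.362). At 29214436 on 3R, 5736 bp upstream of eEF1gamma, which encodes a subunit of the translation elongation factor complex, they were 6.82, 6.96 and 8.31 (7.36 ± 0.824). This last summit was 126 bp from the start of lncRNA:CR31044. The summit at 12752355 on X, 1 of 2 in the gene of lncRNA:CR44619, gave 6.13, 7.77 and 6.49 (6.795 ± 0.867). These 4 summits overlapped one another in range except that all 3 values beside CG13323 lay above those beside CG43245 and in lncRNA:CR44619.

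The summits in places 7 to 20 fell from 5.39 to 3.32 times the typical peak, and all 20 were found among the best peaks of all 3 replicates. The summit 1289 bp from the start of DNAlig3, which encodes a DNA ligase, measured 5.96, 5.45 and 4.75. It lay in a gap of 437 bp between the convergent genes Sol1 and Cyp9f2, so DNAlig3 does not border the gap. The summit 4692 bp upstream of Act5C, a gene for cytoplasmic actin, measured 4.41, 5.04 and 5.23 and lay inside lncRNA:CR45668. The summit 583 bp upstream of ds (dachsous, an atypical cadherin of planar polarity) measured 4.67, 3.92 and 3.37. Others lay 1790 bp from E(spl)malpha-BFM, a Notch-responsive gene of the Bearded family (3.42 ± 0.222), 8413 bp from CG9300 in lncRNA:CR44676 (3.71 ± 0.119), and 7633 bp from RYBP, whose product binds Polycomb-group proteins (3.47 ± 0.496). From place 10 on the replicate ranges of neighbouring summits overlapped, as the plot of the 20 strongest summits shows.

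**Figure D1:**
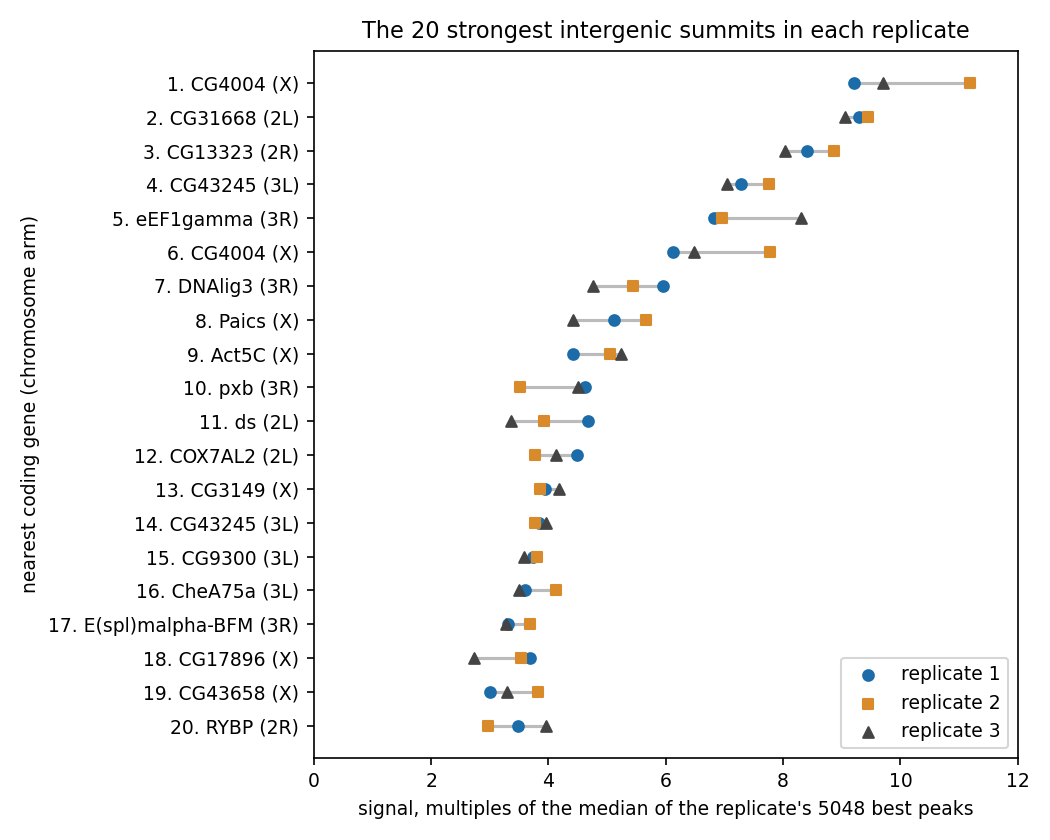
Signal at the 20 strongest intergenic summits in replicates 1, 2 and 3, as multiples of the median over the best 5048 peaks of the replicate; summits are labelled by their nearest coding gene and ordered by pooled signal. The first 6 summits lie above 6 in every replicate, and places 10 to 20 lie close together between 2.73 and 4.67.

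Intergenic summits made up a smaller share of the strongest peaks than of the weaker ones. They made up 9% of the 100 strongest optimal peaks, 16.2% of those ranked between 500 and 1000 and 23.9% of those ranked 4001 to 5048. Of the 1040 summits, 64 (6.15%) were among the 500 strongest, against 9.90% of all optimal summits. Each replicate's own list showed the same order: intergenic peaks made up 11.8%, 13.0% and 13.0% of its 500 strongest peaks (12.6 ± 0.693) and 20.4%, 21.7% and 20.4% of the rest of its 5048 best (20.8 ± 0.749). The share was lower among the 500 strongest in 3 of 3 replicates (exact sign-flip permutation test, two-sided, p = 0.25, the smallest p that 3 replicates allow). This test gives that p whenever all 3 replicates differ in the same direction, whatever the size or spread of the differences.

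**Figure D2:**
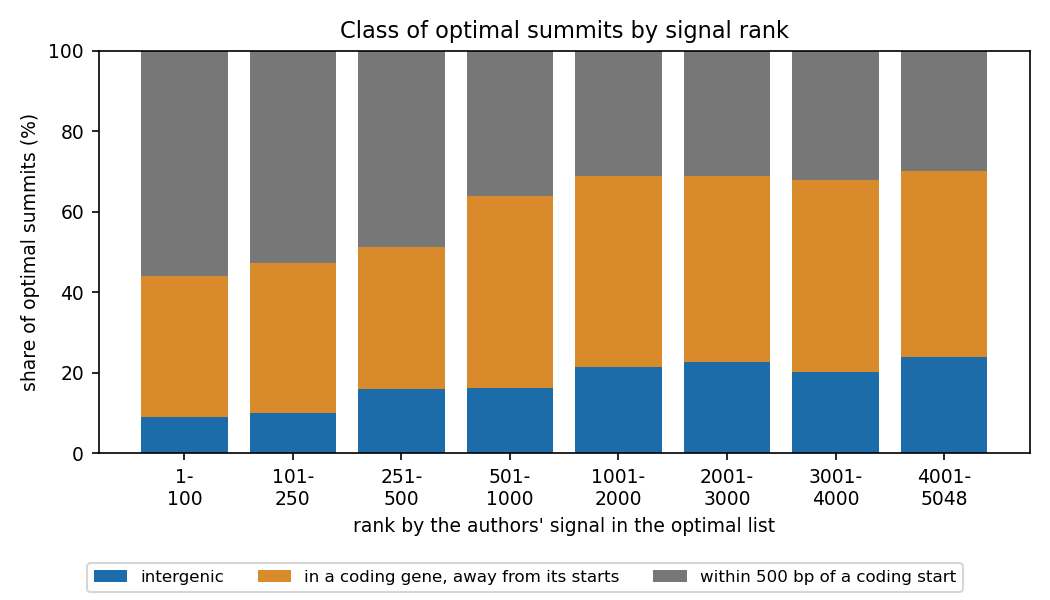
Share of optimal summits (%) in each of 3 classes, by rank of the authors' signal. The intergenic share is 9% in ranks up to 100 and 23.9% in ranks 4001 to 5048, while the share within 500 bp of a coding start is highest, 56.0%, in ranks up to 100.

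The median intergenic signal was a little lower than that of other summits, a difference that 3 replicates cannot bring past a threshold of 0.05. Its median was 0.941, 0.989 and 0.979 in replicates 1, 2 and 3, against 1.04, 1.03 and 1.02 for all other optimal summits. The ratio of the medians was 0.907, 0.958 and 0.956 (0.940 ± 0.0292, n = 3). It was below 1 in 3 of 3 replicates, with the smallest p that an exact sign-flip permutation test can give here, 0.25. Set against summits in coding genes away from starts, the ratio was 0.933, 0.989 and 0.975, and against summits at coding starts 0.857, 0.895 and 0.925. Both were below 1 in every replicate with the same exact permutation p of 0.25.

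Recovery of intergenic summits across replicates followed signal, a relation largely built in. The pooled signal and the optimal list both came from these same 3 replicates. Of the 1040 summits, 654 (62.9%, 95% Wilson interval 59.9 to 65.8%, which covers counting error only) overlapped a best peak of all 3 replicates, against 66.4% of all optimal summits. A further 276 (26.5%) were found in 2 replicates, 102 (9.81%) in 1 and 8 (0.769%) in none. Over all optimal summits these shares were 23.7%, 9.35% and 0.614%. All 145 intergenic summits among the 1000 strongest peaks were found in all 3, as were 81.5% in ranks 2001 to 3000 and 11.2% in ranks 4001 to 5048. For all optimal summits the share was 100% in each rank range up to 500 and 99.6% in ranks 501 to 1000. In ranks 2001 to 3000 and 4001 to 5048 it was 82.2% and 11.5%. These shares were close to the intergenic ones. At the edge of the distance rule, the 5 nearest summits inside it lay 508 to 516 bp from a TSS with signals from 96.1 (Boot) to 359.9 (CG17896), and the 5 nearest outside lay 486 to 494 bp away with signals from 65.7 (Mnr) to 189.6 (prtp).

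Chromosome arm 3L held 351 of the 1040 intergenic summits (33.8%), although it holds 23.2% of all optimal summits and 24.1% of intergenic sequence. This was 36.5 per Mb of intergenic sequence, and 34.7, 36.8 and 35.5 per Mb among the best peaks of replicates 1, 2 and 3. The X chromosome held 109 (10.5%) and 17.5 per Mb, and 17.6, 18.1 and 16.7 in the replicates. The replicates' values for the 2 arms did not overlap. Density was 28.7 per Mb on 3R, 26.1 on 2L, 17.8 on 2R and 10.1 on chromosome 4, the last from 3 summits. On 3L 30.0% of all optimal summits were intergenic and on X 11.9%. Per Mb of the whole arm, optimal summits of all classes were close, at 41.6 on 3L and 39.0 on X.

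The order of the other arms depended on sequence near centromeres that holds no peak. On 2R the first optimal summit lies at base 5782050 and on 3R at 4214250. When only intergenic sequence between an arm's first and last optimal summit was counted, a choice made after seeing the data, the density was 56.0 per Mb on 3L, 33.9 on 3R, 32.0 on 2R, 31.1 on 2L, 19.2 on X and 17.3 on chromosome 4. The densities of 3L, 2R and chromosome 4 each rose by more than 1.5 times. Arm 3L remained the highest, and X and 2R, which were about equal over all intergenic sequence, were apart on this measure.

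**Figure D3:**
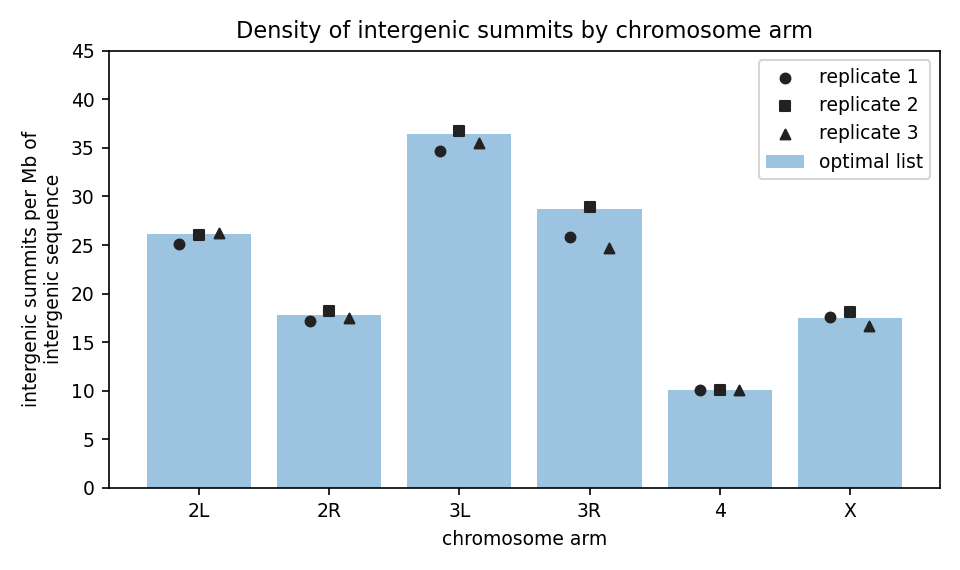
Intergenic summits per Mb of intergenic sequence on each chromosome arm, for the optimal list (bars) and for the 5048 best peaks of each replicate (points). Arm 3L stands at 36.5 per Mb in the optimal list and X at 17.5, and the replicates of the 2 arms do not overlap.

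Intergenic summits lay nearer to coding starts than intergenic sequence as a whole, a gap that narrowed without the peakless ends of the arms. The median distance to the nearest coding TSS was 4872.5 bp, with quartiles of 1922 and 10562 bp, and 4669, 4699 and 4692 bp in the 3 replicates (4687 ± 15.7). The median over all intergenic positions, taken every 50 bp, was 8466 bp. Density was 44.2 per Mb at up to 1 kb and 44.6 at 1 to 2 kb, 32.3 at 2 to 5 kb, 25.8 at 10 to 20 kb, 14.7 at 20 to 50 kb and 1.46 beyond 50 kb. The last bin rests on 8 summits in 2 gaps between genes. The summit lay upstream of the nearest gene for 660 (63.5%), as did 59.3% of intergenic sequence, and density was higher between divergent genes (32.7 per Mb) than between tandem (27.0) or convergent ones (22.2). Between the first and last optimal summit of each arm, a background chosen after seeing the data, the median position lay 5876 bp from a coding TSS, 61.0% of sequence was upstream of its nearest gene and 2.72% lay beyond 50 kb. Density was then 46.0 per Mb at up to 1 kb, 34.6 at 2 to 5 kb, 31.9 at 10 to 20 kb, 26.8 at 20 to 50 kb and 9.85 beyond 50 kb, and it was 39.1, 34.3 and 30.6 per Mb between divergent, tandem and convergent genes.

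**Figure D4:**
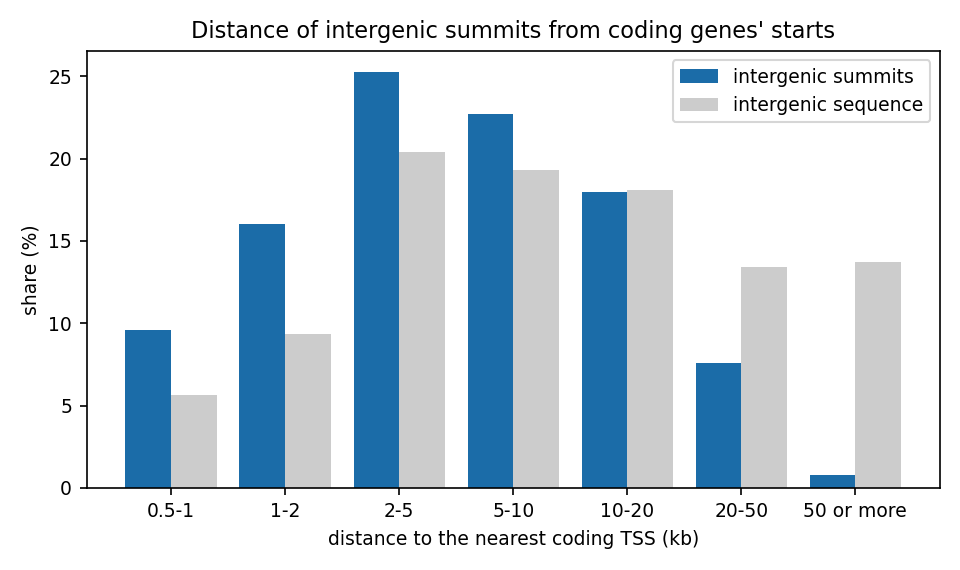
Share of the 1040 intergenic summits and of intergenic sequence (%) by distance to the nearest coding TSS (kb). Summits exceed sequence in every bin up to 10 kb and fall far short of it at 50 kb or more, with 0.769% of summits and 13.7% of sequence, or 2.72% of the sequence between each arm's first and last optimal summit.

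The most distant summits lay in 2 gene deserts of 3L. A summit at 10350967, 61851 bp from CG12362, measured 1.07, 0.596 and 0.202 in the replicates, and only replicate 1 held it among its best peaks. Its neighbour at 10352265, 60553 bp from CG12362, measured 1.79, 1.06 and 1.35 and was found in all 3. Those at 10352865 (1.15 ± 0.152) and 10332013 (1.19 ± 0.406) were also found in all 3, and these 4 lay inside lncRNA:CR46006, a noncoding gene within the gap of 138 kb between Or67d, an odorant receptor gene, and CG12362. The remaining one, at 6853549 and 60415 bp from Prat2, lay between vvl, which encodes a POU-domain transcription factor, and Prat2, an enzyme of purine synthesis. That gap of 117 kb held 10 summits, of which 1 was found in all 3 replicates.

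Many intergenic summits lay close to others, as did summits in coding genes. Another intergenic summit lay within 5 kb of 613 (58.9%), and any optimal summit within 5 kb of 694 (66.7%), against 61.8% of all optimal summits. For summits in coding genes the shares were 57.3% with a neighbour of their own class and 66.6% with any, so the intergenic shares were near these. Peaks that overlap add to this: 91 of the 1040 overlapped another optimal peak, and such neighbours can share 1 peak in a replicate and so the same value. In all 3 replicates, 77 summits shared their replicate peak with another intergenic summit. Counts and medians given for single gaps count each such summit. With 1 summit kept per group of overlapping peaks, 999 were left and 56.2% had a neighbour. Joined in steps of up to 5 kb, the summits formed 623 runs, of which 427 were single summits, 100 were pairs and 96 held 3 or more. In all, 507 gaps between coding genes held at least 1 summit, and 309 of these held 1.

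The 5 coding genes nearest to the most intergenic summits were all on 3L: hng3 with 16, CG43245 and CG13898 with 13 each, and Tollo and Ids with 11 each. Tollo encodes a Toll-family receptor and Ids an iduronate sulfatase. The gap of 47.9 kb between hng3 and CG13898 held 19 summits from 0.556 to 2.89 times the typical peak with a median of 1.10, and 12 of them were found in all 3 replicates. The gap between Ids and sty (sprouty, an inhibitor of receptor tyrosine kinase signalling) held 12 in 21.1 kb, with a median of 1.14, a highest value of 2.89 and 9 found in all 3. On 3R the 23.8 kb between CG18404 and heca held 11, and the 20.4 kb between mtSSB and tara held 10. Pooled signals in these 4 gaps reached no more than 321.3, against 1107.8 at the strongest summit.

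The group on X beside Paics, which encodes an enzyme of purine synthesis, had higher signal. It held 6 summits within 4.90 kb, between the convergent genes CG4004 and Paics, with a median of 3.36. The 3 strongest, at 12751312, 12752355 and 12754524, lay in lncRNA:Vinr or lncRNA:CR44619 and measured 10.04 ± 1.03, 6.795 ± 0.867 and 5.07 ± 0.623. The other 3 lay outside both genes at 1.14 to 1.65, and the last 2 of them, 202 bp apart, shared 1 replicate peak. In each replicate the 3 summits inside the noncoding genes were above the 3 outside them.

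Among noncoding genes of 3L, lncRNA:CR43334, in which the microRNA gene bantam lies, held 5 intergenic summits, all found in all 3 replicates. bantam promotes growth and blocks cell death. The strongest of the 5, at 640772, measured 2.59, 2.93 and 2.59 (2.70 ± 0.199). A summit 473 bp from the start of the bantam hairpin measured 0.969, 1.09 and 0.638, below every value of the summit at 640772. The summit at 621564 in lncRNA:CR43337 measured 2.71, 2.58 and 2.96 (2.75 ± 0.193), in a range that overlapped that of the summit at 640772.

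Noncoding genes held 114 of the 1040 intergenic summits (10.96%), against 5.21% of all optimal summits, most of which lie in coding genes or at their starts. In the replicates the share was 13.3%, 11.4% and 11.4% (12.03 ± 1.08). Without annotated transposable elements 112 summits (10.8%) lay in such genes, whose bodies cover 7.20% of intergenic sequence. Long noncoding RNA genes took 107 summits in 79 genes, and 62 summits lay in an exon of a noncoding gene. No background share was taken for exons. Antisense RNA genes held 3 (asRNA:CR33945 at 1.14 ± 0.172, asRNA:CR43426 and asRNA:CR44894). The pseudogene CR42490 held 1 (1.22 ± 0.0782) and the small nucleolar RNA gene snoRNA:Psi18S-176 held 1, which was found in 1 replicate. Annotated transposable elements cover 10.5% of intergenic sequence and held 2 summits, both in INE-1 copies. Both the 7.20% and the 10.5% include arm ends that hold no peak, and neither was taken without them. The few summits in transposable elements are therefore not read as a shortage.

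Several of the stronger hosts are known genes. Hsromega, whose nuclear transcripts organise omega speckles, had a summit 215 bp inside its start that measured 2.24, 2.07 and 2.78 (2.36 ± 0.373). The gene lncRNA:let7C gives the primary transcript of the let-7 complex, microRNAs that time the passage from larva to adult. Its strongest summit, 552 bp from the start, measured 3.00, 2.60 and 2.36 (2.65 ± 0.320), and 2 more within the gene measured 1.16 ± 0.196 and 0.934 ± 0.318. Its first summit was above both others in all 3 replicates. Starts of noncoding genes lay within 500 bp of 102 summits (9.81%), 90 of them beside lncRNA genes, 3 beside tRNA genes and 2 beside microRNA hairpins, bantam and mir-275. The like share of all optimal summits or of intergenic sequence was not taken, so these counts are a description only. The mir-275 summit, 463 bp away, measured 0.797 ± 0.0946.

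Genes of the ecdysone response, from receptors to targets, were the nearest coding gene of 12 intergenic summits (1.15%), against 1.47% of all optimal summits and 0.503% of intergenic sequence. Of 33 such genes 6 had an intergenic summit. Eip93F, an ecdysone-induced transcription factor of metamorphosis, had 4, with the strongest, 7563 bp upstream, at 2.42, 2.34 and 2.92 (2.56 ± 0.316). Another, 11857 bp upstream, measured 2.72, 2.48 and 2.48 (2.56 ± 0.137), and the ranges of the 2 overlapped. The whole gap from Qsox2 to Eip93F, 33.6 kb, held 9 summits from 0.589 to 2.56, of which 7 were found in all 3 replicates. Some neighbours among the 9 shared a replicate peak and so the same values. For hid, which triggers cell death in larval tissues, the summit 5068 bp upstream measured 2.12, 1.72 and 2.01 (1.95 ± 0.209). Ldh, lactate dehydrogenase, had 1.24 ± 0.212 and Eip78C, an ecdysone-induced nuclear receptor, 0.708 ± 0.0934, the latter found in 2 replicates.

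Of 10 genes of ecdysone synthesis, 1 had intergenic summits. This was shd, which encodes the enzyme that converts ecdysone to its active form outside the gland; its 2 summits had a highest value of 0.842 ± 0.436, at 0.668, 1.34 and 0.519, and neither was found in all 3 replicates. Intergenic sequence nearest to the 10 genes made up 0.521% of the total and their summits 0.192% of the 1040.

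Developmental transcription factors were the nearest gene of 47 summits (4.52%), against 1.90% of all optimal summits and 3.44% of intergenic sequence. Of 97 such genes on a fixed list, 29 had a summit. The list does not hold every such factor. Outside it, lola (2.70 ± 0.251) and ovo (2.27 ± 0.354) had stronger summits than those named next. Among listed genes the strongest was at hry (hairy, a bHLH repressor of segmentation), 7478 bp upstream at 1.56, 1.86 and 2.33 (1.92 ± 0.389). It was followed by srp (serpent, a GATA factor of fat body and blood), 1584 bp upstream at 2.01, 1.30 and 1.70 (1.67 ± 0.358). The factors noc and bowl, both zinc-finger proteins, had 1.44 ± 0.416 and 1.41 ± 0.248. The ranges of these 4 overlapped.

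Signalling ligands were nearest to 20 summits (1.92%), against 1.01% of all optimal summits and 0.618% of intergenic sequence, and 13 of 41 had one. The summit 1704 bp upstream of dpp, the fly BMP ligand, measured 1.73, 1.62 and 1.97 (1.77 ± 0.181). Wnt10 followed with 1.64 ± 0.192, upd1, a ligand of JAK/STAT signalling, with 1.55 ± 0.0734 and ths, an FGF ligand, with 1.31 ± 0.122. Among structural genes, 1 of 37 cuticle genes, Cpr72Ea, had a summit (1.30 ± 0.142), and none of 15 genes of chromatin architecture or 19 of salivary glue did. Intergenic sequence nearest to those last lists made up 0.00100% and 0.00701% of the total. Over all 13945 coding genes 577 (4.14%) were nearest to an intergenic summit.

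The base composition at intergenic summits formed a narrow AT-rich centre between GC-rich shoulders. Mean GC content, in bins of 50 bp, was 30.9% at the summit, 40.2% and 40.7% at 100 bp to the left and right, 47.2% and 46.9% at 300 bp, and 41.7% and 41.5% at 1000 bp. In windows of 200 bp it was 34.2% at the summit and 41.5% in windows centred 1000 bp away, and 34.9%, 33.9% and 35.4% at the summits of the replicates' own intergenic peaks. Summits in coding genes had a similar centre (31.3%) with shoulders of 45.7% and 45.6%. Those at coding starts had 32.4% at the centre and 44.4% and 44.8% at 300 bp, close to the 44.3% at 1000 bp. An unbroken run of 20 or more A or T bases occurred in 11.5% of intergenic windows, 4.81% of flanking ones and 5.62% of windows along all intergenic sequence, and in 11.6% of windows at all optimal summits.

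**Figure D5:**
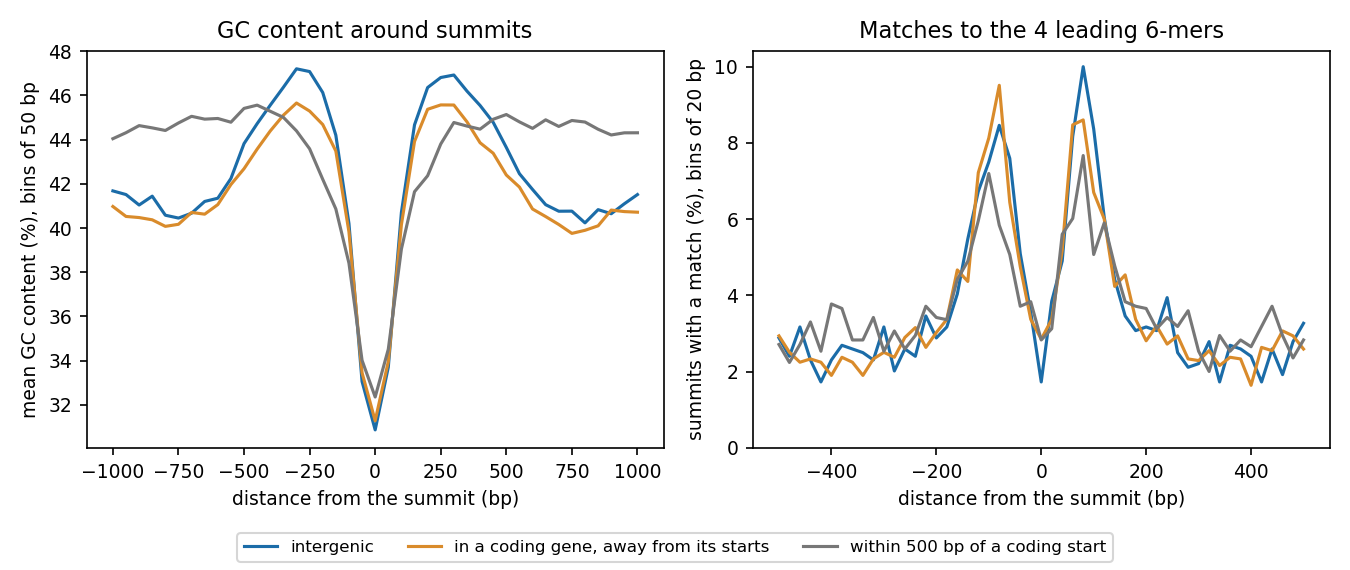
Left, mean GC content (%) in bins of 50 bp around summits of 3 classes; right, share of summits (%) with a match to any of the 4 words led by AGTGTA in bins of 20 bp. For intergenic summits GC content is 30.9% at the centre and 47.2% at 300 bp to the left, and the words rise to 8.46% and 10% at 80 bp on either side of a centre at 1.73%.

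A group of short words that share letters with CAGTG was common beside the centre. Of 6-base words present in 5% or more of the windows, those with the highest ratio of summit to flanking windows were AGTGTA (19.9% against 6.92%), GTGCAC (11.7% against 4.57%), ACAGTG (16.6% against 6.78%) and ACACTG (19.2% against 8.37%). Words were counted on both strands, so ACACTG is also CAGTGT and shares 5 letters with AGTGTA, and ACAGTG is also CACTGT. They were chosen on these summits, so the ratios are a description. At least 1 of the 4 was present in 476 windows (45.8%), in 20.9% of flanking windows and in 20.6% of windows along all intergenic sequence. The share was 43.5% over all optimal summits, 45.4% in coding genes and 39.6% at coding starts, so the words were not particular to intergenic summits. The replicates' own intergenic summits gave 44.9%, 46.8% and 44.0%.

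Matches to the words were most frequent to either side of the summit base and not on it. Some rise inside the window of 200 bp was built in, because the words were chosen there. The centre was also the most AT-rich part, and the place of the words was not tested against base composition. In bins of 20 bp a match was present at 1.73% of summits at the centre, 8.46% at 80 bp to the left and 10% at 80 bp to the right, and from 1.73% to 3.94% in bins 200 to 500 bp away. Summits in coding genes showed a like pair of rises, at 9.51% and 8.60%, and those at coding starts 5.84% and 7.67% at the same places. At coding starts AGTGTA was in 14.0% of windows and 6.08% of their flanks, ACAGTG in 17.8% and 8.29%, ACACTG in 17.1% and 7.99%, and GTGCAC in 5.84% and 4.51%. Longer words, chosen on the same windows and so no separate evidence, mostly held the same core. Of words of 8 bases in 2% or more of windows, the highest ratio to flanks was at CAGTGTAG (2.98% against 0.288%). AATACACT (2.88% against 0.337%) and ACTGAGAG (3.27% against 0.481%), also of high ratio, lacked CAGTG on both strands. Among the words of highest ratio, the 4 most frequent all held it. TCAGTGCA was in 6.538% against 0.865% of flanks, CACTGAGA in 6.35% against 0.817%, CAGTGCAC in 6.35% against 0.913% and TACACTGA in 5.10% against 0.625%. In windows at coding starts these 4 were in 2.24%, 1.77%, 2.12% and 2.12%. In windows at summits in coding genes they were in 4.84%, 5.92%, 4.19% and 4.24%. The longer words were thus shared with summits in coding genes and not particular to intergenic ones. In the sequences printed above, the summit in lncRNA:CR44619 carried ACAGTGCAC, which joins 2 of the words.

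Motifs of known factors fell into AT-only words, which were more frequent at summits than beside them, and others. The TATA-box letters TATAAAA were in 18.5% of intergenic windows, 10.9% of flanking windows and 10.1% of windows along intergenic sequence, and in 19.1% at coding starts. The homeodomain core TAATTA was in 18.2%, 14.0% and 14.2%, and the A tract AAAAAAAA in 16.6%, 11.6% and 10.8%; both are AT-only and can overlap AT runs, as TATAAAA can. ATATATAT was in 6.538% of summit windows against 3.51% of flanks. Promoter elements found at coding starts were rare at intergenic summits: the Dref core TATCGATA was in 0.288% against 3.60% at coding starts, and the M1BP motif GGTCACAC in 0.385% against 2.24%. In windows along intergenic sequence they were in 0.451% and 0.225%. At summits in coding genes the 2 motifs were about as rare, in 0.346% and 0.432%. In flanks of intergenic summits they were in 0.337% and 0.192%, the M1BP comparison resting on 4 windows on each side. The remaining letters searched, all on both strands, were in no larger share of summit windows than of flanks: AGGTCA, a nuclear receptor site, in 3.56% and 4.71%, CACGTG, the E-box, in 2.21% and 2.40%, CACACACA in 2.88% and 5.24%, GAGAGAGA in 1.06% and 1.39%, the Zelda motif CAGGTAG in 0.673% and 0.721% and TGACGTCA, the cyclic AMP response element, in 0.0962% and 0.240%. In windows along intergenic sequence these were in 5.15%, 2.09%, 4.12%, 0.861%, 0.806% and 0.265%.

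Soft-masked repeats were about as frequent at these summits as along intergenic sequence. The summit base was soft-masked in the reference for 246 (23.7%), against 25.6% of all optimal summits and 26.2% of intergenic sequence, with 25.1%, 23.4% and 22.3% in the replicates (23.6 ± 1.42). That share of sequence includes the arm ends that hold no peak.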

How the data were processed

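Only lists of peaks were used. According to the submitters' file lists, peaks of each replicate were called against a control, and an irreproducible discovery rate threshold on single and pooled calls gave the optimal peaks. Control libraries were not analysed here, and no source used here names the aligner or peak caller. The deposited lists give a signal for each peak, on a scale of the authors that is not stated. They hold no read counts, so depth is unknown and precision rests on 3 replicates.

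Positions are on dm6, counted from 1. Genes came from Ensembl release 115, sequence from NCBI's copy of the assembly and its soft-masking. The gene nearest a summit was the one with the nearest coding TSS. Each replicate was reduced to its 5048 best peaks, and recovery meant an overlap of 1 bp or more with these. The intergenic summits of those peaks gave the replicate values and their SD. An optimal peak took its signal in a replicate from the strongest overlapping peak of the whole list. Exact sign-flip permutation over replicates was the only test. Windows were 200 bp, with flanks centred 1000 bp to each side. Intergenic sequence was sampled every 50 bp. Unless stated, shares of intergenic sequence, also those beside the gene lists, include arm ends that hold no peak.

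The members, gene lists and motifs were chosen with earlier results of these data known. The naming rule took the 20 strongest and 5 farthest summits, the 5 genes nearest to the most, the 5 strongest noncoding hosts per biotype and up to 4 genes per list. Hsromega, let7C, mir-275, bantam, the named gaps and the 6-base and 8-base words were chosen after their values were seen. One listed gene name, glass, was not matched, though the same gene was listed as gl. Functions were checked on simulated data. Tools were numpy 2.4.6, scipy 1.17.1, pandas 2.3.3 and, for figures, matplotlib 3.10.9, under Python 3.11.15.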

Additional observations from a re-analysis of the deposited data

How the results depend on the processing

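No paired analysis was possible because the series holds 1 group. The depth of the libraries is unknown, the optimal list rests on all 3 replicates, and leaving 1 out meant keeping the summits found in both others. The ratio of intergenic to other signal kept its direction in all 8 alternatives, from 0.864 with means to 0.966 against summits in coding genes. The number of summits, 1040, stayed within 1.5 times from 711 (without 1 replicate) to 1303 (200 bp from a TSS), except for the 64 among the 500 strongest. Recovery in all 3 replicates, 62.9%, was 55.0% where 50% of both intervals had to overlap, 31.4% with the 2500 and 93.7% with the 10000 best peaks, and 68.4 to 74.2% when 1 replicate was left out. GC content was 31.4% in windows of 100 bp and 39.1% in windows of 400 bp. The median distance to a TSS was 3874 bp for the 500 strongest, 4647 to 5009 bp with 1 replicate left out, 2525 bp to the TSS of any gene and 3660 bp to a coding gene's edge. The share in noncoding genes was 14.1% for the 500 strongest, 12.5% for summits found in all 3, 11.5 to 12.4% with 1 replicate left out, 5.96% in exons and 16.8% with their starts. The share with a neighbour within 5 kb was 20.3% for the 500 strongest, 52.9% for summits found in all 3, 53.6 to 55.6% with 1 left out, 56.2% with 1 summit per group of overlapping peaks (chosen after seeing the data) and 66.7% counting any optimal summit; it was 42.1% within 2 kb and 69.1% within 10 kb. The soft-masked share was 20.3% for the 500 strongest and 5% where 50% of the window had to be masked. The cause of these shifts was not tested.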
